A study of Mus musculus with 24 samples.

Results

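The Hox genes encode homeodomain transcription factors that give cells their position along the body axis and along the limb. In the mouse they lie in clusters A to D, each on its own chromosome, and genes at the matching place in each cluster form a paralog group. Genes of low paralog number are used toward the head and those of high number toward the tail, and the genes of groups 9 to 13 pattern the limb from its base to its digits. In adult muscle, Hox transcripts remain as a record of where the tissue was formed, and they are found in muscle fibers, satellite cells and connective tissue cells. The members described here were all genes whose GENCODE mouse symbol was Hox followed by a letter a to d and a number. This gave 39 of the 55487 genes in the count tables, and 55141 of those identifiers had an entry in GENCODE M21.

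RNA was sequenced from the left tibialis anterior (TA), a fast muscle of the front of the lower hindlimb, of 24 wild-type male C57BL/6J mice aged 5 to 7 weeks. Photobiomodulation therapy (PBMT) was 830 nm light given to the shaved lower limbs under anesthesia at 25 mW/cm² and 30 J/cm² for 20 min, 24 h before tissue was taken. Each of the 4 groups held 6 mice: sedentary mice with light (sedentary PBMT) or without it (sedentary control), and fatigued mice with light (fatigued PBMT) or without it (fatigued control). Fatigued mice ran on a treadmill to exhaustion and their muscle was taken straight after the run, and controls were shaved and anesthetized without light. All fatigued libraries came from one sequencing project and all sedentary libraries from another, so exercise and project cannot be told apart in any comparison of fatigued with sedentary muscle.

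The total per mouse was 43271093 to 68726155 counts. Fatigued libraries were deeper, at 53122528 to 68726155, than sedentary libraries, at 43271093 to 52775844. Levels are given as CPM, the counts in 1000000 counts of the library, with library totals scaled by the trimmed mean of M-values (TMM). Where genes are compared with each other, they are given as RPKM, which is CPM divided by the gene's exon length in kilobases. The tissue label was matched by its markers: all 10 fiber genes fixed for skeletal muscle were read in every group, and their summed level was 114100 to 185300 CPM per mouse. The most abundant of them per length was Acta1, skeletal muscle actin, at a median of 16110 RPKM.

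The library of sedentary control replicate 4 stood apart. Its counts differed from those of the other 5 mice of its group by a median chi-square of 441 per degree of freedom, against 14.7 to 89.1 for the other mice. Mitochondrial genes took 3.24% of its counts, and 15.5% to 17.0% in the other 5 sedentary control mice. The same share was 13.8% to 17.1% in sedentary PBMT, 10.5% to 12.9% in fatigued control and 10.7% to 12.1% in fatigued PBMT mice. Among sedentary control mice it had the highest sum of fiber genes, at 165200 CPM (114100 to 131300 in the other 5), the highest sum of satellite cell markers, at 30.6 CPM (20.7 to 23.0), and the lowest sum of myeloid markers, at 38.9 CPM (48.4 to 106). For comparisons that use this mouse, the counts of called Hox genes are also given without it. For the other gene lists and for the spread, leaving it out was chosen after seeing the data, and a part of the values that moved is given.

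Of the 39 Hox genes, 20 had a median of at least 0.5 CPM over the 24 mice and are called expressed here. The member just inside this limit was Hoxb6, at 0.525 CPM, and the highest of those outside it was Hoxb5, at 0.460 CPM. Another 14 members were read below the limit, and 5 had no count in any mouse. All Hox genes together took 0.0139% to 0.0172% of the counts of a mouse. The expressed members were 8 of 11 in cluster A (chr6:52155590-52260880, minus strand), 7 of 9 in cluster C (chr15:102921103-103036852, plus strand), 3 of 10 in cluster B (chr11:96194316-96368256) and 2 of 9 in cluster D (chr2:74668310-74765142). Coordinates are of GRCm38.

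Cluster C gave most of the Hox signal. Its summed level was a median of 52.4 RPKM, which was 66.6% to 77.1% of the summed Hox level of a mouse. Cluster A followed with a median of 16.0 RPKM and 19.0% to 25.5%. Clusters B and D were far lower, with medians of 1.46 and 1.58 RPKM, and neither passed 4.58% of the sum in any mouse. The share of cluster C was 72.5% ± 0.879 in sedentary control, 72.2% ± 0.890 in sedentary PBMT, 74.0% ± 2.11 in fatigued control and 73.8% ± 3.76 in fatigued PBMT mice (mean ± SD, n = 6 each).

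**Figure D1:**
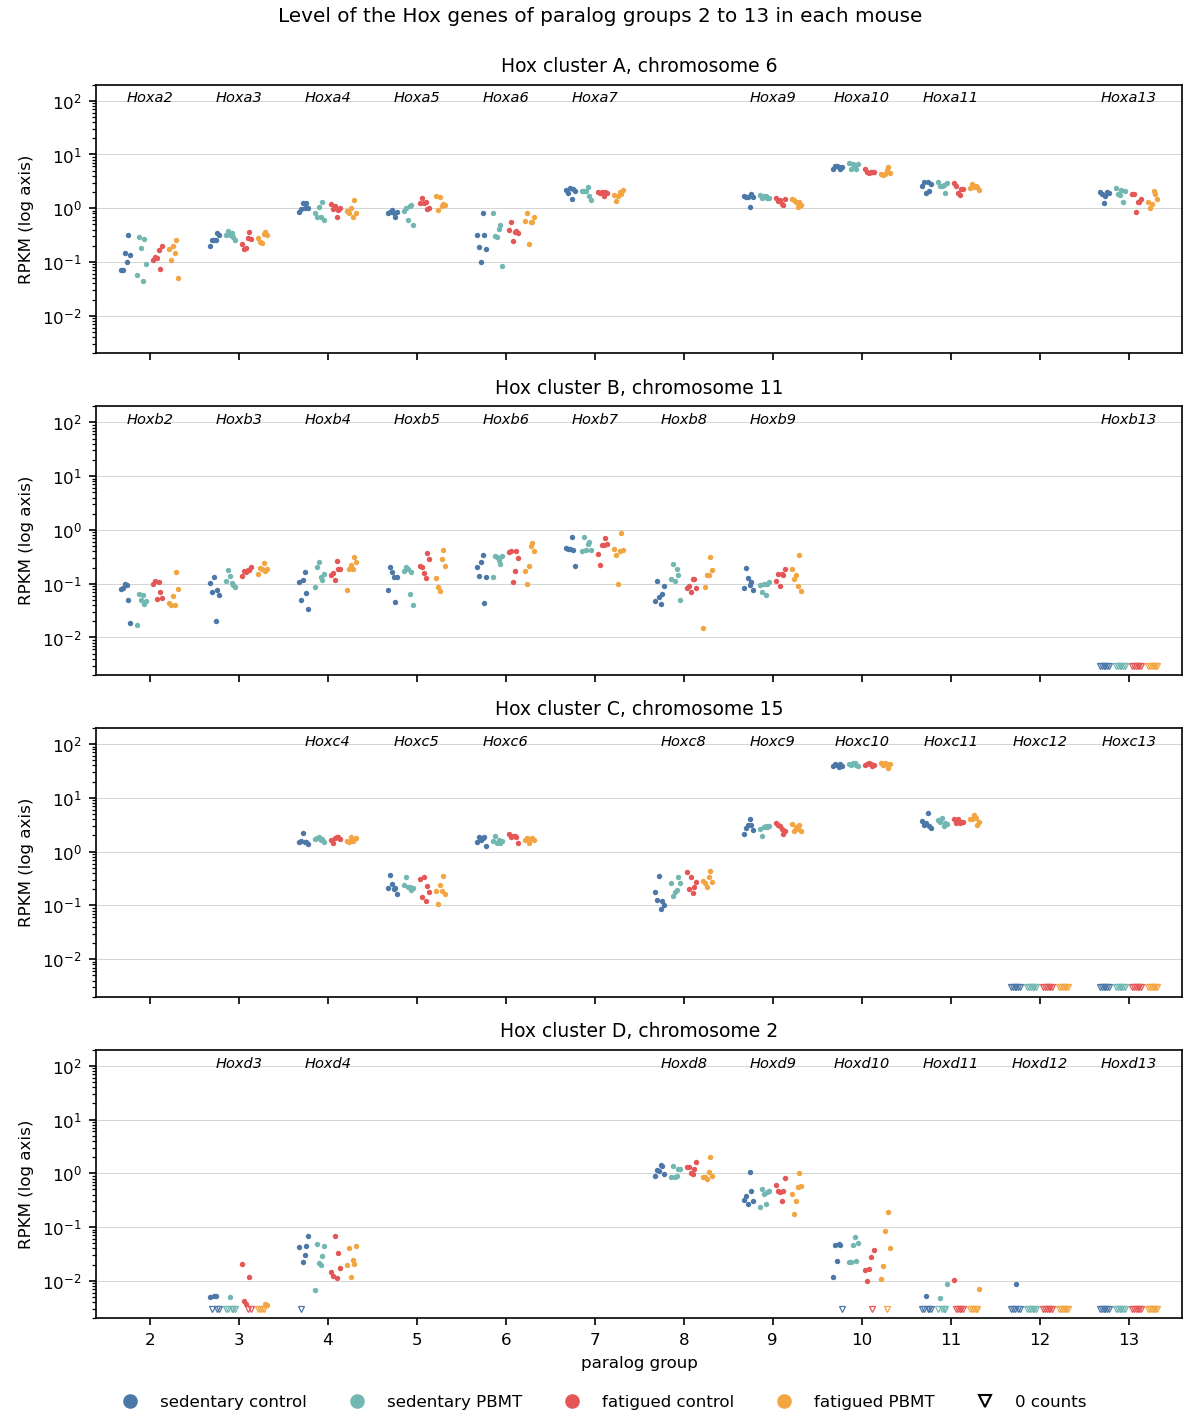
Level of the Hox genes of paralog groups 2 to 13 in each of 24 mice, in RPKM on a log axis, against paralog group, with 1 panel per cluster and 1 color per group. Open triangles mark mice with 0 counts and are drawn at the foot of the axis. Hoxc10 lies between 36.5 and 44.4 RPKM in every mouse, above every other member, while Hoxc12, Hoxc13, Hoxb13 and Hoxd13 have 0 counts in all 24 mice.

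Hoxc10 (ENSMUSG00000022484, chr15:102966796-102971893) was the most abundant Hox gene of this muscle by a wide margin. In the embryo this gene marks the lumbar spinal cord and the hindlimb bud and is largely absent from the forelimb. It had 3317 to 5560 counts per mouse. Its level was 69.6 to 84.7 CPM, with a median of 79.3 CPM or 41.5 RPKM. In every mouse it was above the next member, Hoxa10, and the ranges of these genes did not overlap. It made up 51.7% to 61.5% of the summed Hox RPKM, with a mean of 58.6% ± 2.31 (SD, n = 24). With coding length in place of exon length that mean was 46.8%, and Hoxc10 was still first. Of its exon bases, 166 are shared with the transcript model of Hoxc5 on the same strand. How reads there were counted is not given in the sources used here.

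The other expressed genes of cluster C were far below it. Hoxc11, which like Hoxc10 is used in the embryonic hindlimb, had a median of 3.54 RPKM and a range of 2.73 to 5.12. Hoxc9, a thoracic gene of the body axis, had a median of 2.84 RPKM and a range of 1.92 to 3.96. With coding length Hoxc9 was above Hoxc11, at places 4 and 6 of the order of the expressed members of all clusters. Hoxc6 and Hoxc4, which are used further forward, had medians of 1.68 and 1.67 RPKM. Hoxc8 and Hoxc5 were near the limit, at 0.242 and 0.212 RPKM. No transcript was detected from the 5′ end of the cluster at this depth: Hoxc12 and Hoxc13, a gene known from hair follicles and nails, had 0 counts in all 24 mice.

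In cluster A the highest member was Hoxa10 (ENSMUSG00000000938, chr6:52231197-52240854), which patterns the upper segment of the limb and the lumbar skeleton. It had 738 to 1263 counts per mouse and a median of 5.35 RPKM. Hoxa11, a gene of the middle limb segment, followed with 2.56 RPKM. Of the exon bases of Hoxa11, 35.0% lie opposite Hoxa11os, and since the strand setting of the counting is not given in the sources used here, reads of the pair cannot be told apart. Hoxa7, of which 20.4% of the exon bases lie opposite Hoxaas3, had a median of 1.99 RPKM, Hoxa13, a gene of the hand and foot, 1.80 RPKM, and Hoxa9 1.50 RPKM. Hoxa9 moved from the tenth to the third place of the order when coding length was used, since its exon length of 5580 bases is far above its coding length of 813 bases. Hoxa5 and Hoxa4 had medians of 1.00 and 0.956 RPKM, and Hoxa3 0.284 RPKM. Hoxa6 and Hoxa2 were read in all 24 mice but below the limit, at medians of 0.323 and 0.230 CPM.

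In cluster D, Hoxd8 and Hoxd9 alone reached the limit, with medians of 1.06 and 0.451 RPKM. The genes on both sides of this pair were at or near 0. Hoxd10 had 88 counts over the 24 mice together, Hoxd11 had 9 and Hoxd12 had 1. Hoxd4 had 111 counts and Hoxd3 had 17, with 52.3% and 62.4% of their exon bases shared with other genes on the same strand, and Hoxd1 and Hoxd13, the latter a gene of the digits, had none. Cluster B was low along its whole length: Hoxb7, Hoxb6 and Hoxb3 had medians of 0.445, 0.267 and 0.144 RPKM. Hoxb2, Hoxb4, Hoxb5, Hoxb8 and Hoxb9 lay between 0.212 and 0.460 CPM, Hoxb1 had 1 count in all, and Hoxb13 had none. For the 5 members with no count, 3 counts would be 0.0438 to 0.0662 CPM in a single library and 0.00231 CPM over the 24 libraries. A level below these limits could not be detected, and the limits cover counting error only.

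By paralog group and exon length, group 10 was a median of 66.8% of the summed Hox RPKM, group 11 was 8.58% and group 9 was 6.81%. With coding length Hoxa9 moved from place 10 to 3 and Hoxc11 from 3 to 6, so the order of groups 11 and 9 rests on exon length. Group 13 was 2.44%, which came from Hoxa13 alone. Group 12 had 1 count in the whole data set. Groups 9 to 13 together made up 79.0% to 87.0% of the sum in a mouse, groups 4 to 8 made up 12.3% to 19.6%, and groups 1 to 3 made up 0.686% to 1.39%. Below Hoxc10, neighbours in the order of levels overlapped in their ranges over the 24 mice at each step. For example, Hoxa10 was above Hoxc11 in 23 of the 24 mice, Hoxc11 above Hoxc9 in 23, and Hoxa13 above Hoxc6 in only 10, all by exon length.

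The most abundant member was also the most stable. Within groups, the SD of log2 CPM was 0.0782 for Hoxc10, which was below all but 1.41% of the 15108 genes tested over the 24 mice. Its group means lay within 0.0442 of each other on the log2 scale. Hoxa10 had an SD of 0.139, Hoxc4 0.163, Hoxc6 0.177 and Hoxa9 0.193. The largest values among expressed members were 0.772 for Hoxb6, 0.632 for Hoxb7 and 0.632 for Hoxd9. Counting error alone would give about 0.0220 for Hoxc10, 0.265 for Hoxb6 and 0.194 for Hoxd9. Over the 20 expressed members the median SD was 0.312, against 0.232 over all genes tested. Neither this comparison nor the place of Hoxc10 was matched on level, and counting error is larger at low counts. The median distance between the highest and the lowest group mean was 0.337, against 0.316 over all genes tested. Without sedentary control replicate 4, which had the highest Hoxd9 of its group, the SD was 0.557 for Hoxd9 and a median of 0.305 over the expressed members, against 0.214 over all genes. For Hoxc10 it was then 0.0768, which was below all but 3% of the genes.

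**Figure D2:**
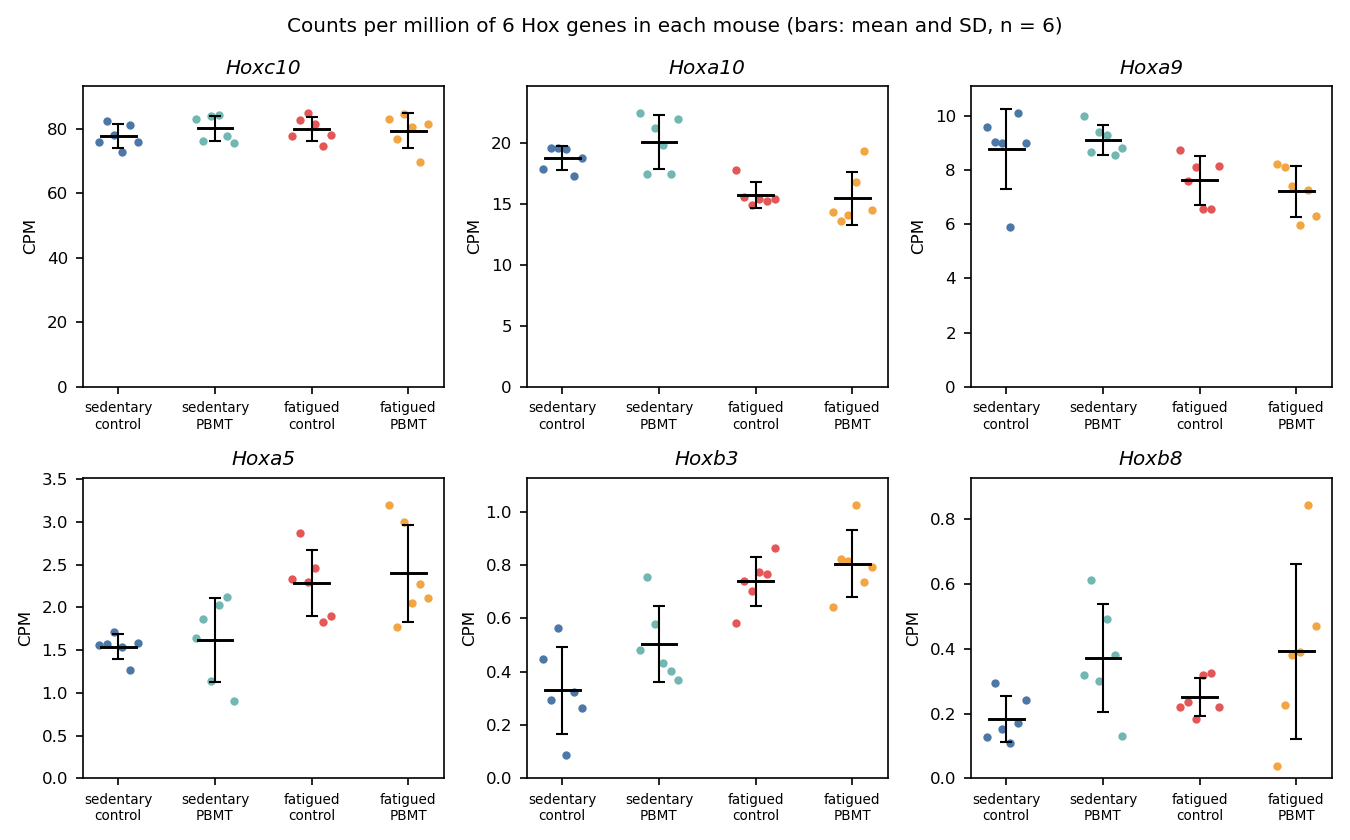
CPM of Hoxc10, Hoxa10, Hoxa9, Hoxa5, Hoxb3 and Hoxb8 in each mouse, by group, with the axis starting at 0. Lines and bars are the mean and SD of 6 mice. The groups of Hoxc10 lie on top of each other. In control and in PBMT mice the fatigued group is lower for Hoxa10 and higher for Hoxa5. The fatigued mean is also lower for Hoxa9 and higher for Hoxb3 in control and in PBMT mice. With all mice, edgeR called Hoxa9 in PBMT mice only and Hoxb3 in control mice only.

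The first comparison asked whether light changed Hox transcripts in resting muscle. No member passed the test. Of the 39 members, 27 had enough counts to be tested, and 0 reached an adjusted p under 0.05 in edgeR, where 4 of 14177 genes did (0.0282%). At an unadjusted p under 0.05 there were 2 members, or 7.41% of those tested, against 7.63% of all genes. DESeq2 and limma voom also called 0 members, with 2 of 34 and 4 of 27 tested members at an unadjusted p under 0.05. The shares of all genes at that limit are not given here for these tools. The median log2 fold change of the tested members was 0.07, against 0.00 for all genes, and 19 were positive. Hoxc10 ranged from 72.8 to 82.3 CPM in sedentary control mice, with a median of 77.0, and from 75.7 to 84.2 CPM in sedentary PBMT mice, with a median of 80.3. The groups overlapped. Their means were 77.7 ± 3.59 and 80.1 ± 3.95 CPM (SD, n = 6), and the log2 fold change was 0.05 with a 95% interval of -0.08 to 0.18.

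The smallest p of this comparison was that of Hoxb8, a gene of the trunk that was below the limit for expressed members. It ranged from 0.110 to 0.294 CPM in sedentary control mice, with a median of 0.162, and from 0.130 to 0.613 CPM in sedentary PBMT mice, with a median of 0.351. In 5 of the 6 PBMT mice it was above the highest control mouse. These values rest on 5 to 30 counts per mouse. Its log2 fold change was 1.02 ± 0.372 (SE) with an adjusted p of 0.581 in edgeR, and an exact two-sided permutation test of the 6 against 6 mice gave p = 0.0303. Without sedentary control replicate 4, edgeR again called 0 members at an adjusted p under 0.05, where 0.126% of all genes were called. At an unadjusted p under 0.05 there were 3 of 27 tested members. The share of all genes at that limit, 7.63% with all mice, is not given here for the fit without that mouse. For Hoxb8 the log2 fold change was then 0.90 with an adjusted p of 0.504. The smallest p without that mouse was that of Hoxb4, with a log2 fold change of 1.04 and an adjusted p of 0.405 in edgeR. With all mice Hoxb4 was the other member under 0.05 at an unadjusted p, with a log2 fold change of 0.80, an adjusted p of 0.648 in edgeR and an exact permutation p of 0.0563. It was 0.0882 to 0.417 CPM in sedentary control and 0.220 to 0.644 CPM in sedentary PBMT mice, of which 2 were above the highest control mouse.

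The same question was asked of muscle taken after the run to exhaustion. Here 0 of the 27 tested members were called by edgeR, and 0% of 14574 genes were. At an unadjusted p under 0.05 there were 0 members and 1.58% of all genes. DESeq2 called 0 of 32 tested members with 0 at an unadjusted p under 0.05, and limma voom called 0 of 27 with 1. Hoxc10 was 74.6 to 84.7 CPM in fatigued control mice, with a median of 79.7, and 69.6 to 84.5 CPM in fatigued PBMT mice, with a median of 81.0. Its log2 fold change was -0.01 with a 95% interval of -0.13 to 0.11. The smallest p was that of Hoxa6, at 0.213 to 0.488 CPM in control mice and 0.190 to 0.718 CPM in PBMT mice. In 5 of the 6 PBMT mice it was above the highest control mouse and in the remaining one below the lowest. Its log2 fold change was 0.59 ± 0.300 (SE) and its adjusted p in edgeR was 1.

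The difference of the PBMT effect between fatigued and sedentary muscle was tested as an interaction over all 24 mice. It called 0 of the 27 tested members in edgeR, where 0.00662% of 15108 genes were called. At an unadjusted p under 0.05 there were again 0 members, against 4.4% of all genes. DESeq2 and limma voom called 0 members too, each with 0 at an unadjusted p under 0.05. The smallest p was that of Hoxb3, with a difference of -0.48 on the log2 scale, a 95% interval of -1.25 to 0.29 and an adjusted p of 0.946. For Hoxc10 the difference was -0.05, with a 95% interval of -0.21 to 0.10. Without sedentary control replicate 4, 0 members were called and the difference for Hoxb3 was -0.28.

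Fatigued muscle was then compared with sedentary muscle, first in control mice and then in PBMT mice. In each of the 2 comparisons 3 of the 27 tested members were called, or 11.1%. Over all genes edgeR called 18.6% in control mice and 26.8% in PBMT mice, and the difference between these shares and that of the Hox genes was not tested. At an unadjusted p under 0.05 there were 5 members in each, or 18.5%, against 32.2% and 37.6% of all genes. In control mice Hoxb3 and Hoxa5 were higher and Hoxa10 was lower in fatigued muscle. In PBMT mice Hoxa5 was higher and Hoxa10 and Hoxa9 were lower. The median log2 fold change of the tested members was 0.08 and 0.05, against -0.01 and 0.00 for all genes.

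Hoxa10 was 17.3 to 19.6 CPM in sedentary control mice, with a median of 19.2, and 14.9 to 17.8 CPM in fatigued control mice, with a median of 15.4. In PBMT mice it was 17.5 to 22.5 CPM in sedentary muscle, with a median of 20.6, and 13.6 to 19.4 CPM in fatigued muscle, with a median of 14.5. In each pair of groups 5 of the 6 fatigued mice were below the lowest sedentary mouse, and 1 fatigued mouse overlapped. The log2 fold change was -0.26 ± 0.0829 (SE) in control mice, with an adjusted p of 0.0324 in edgeR, and -0.38 ± 0.0829 (SE) in PBMT mice, with an adjusted p of 0.00148. Exact two-sided permutation tests gave p = 0.00433 and p = 0.00866. In control mice the adjusted p passed 0.05 without any 1 of 8 mice. It was 0.0534, 0.0666, 0.0548, 0.0589 and 0.0667 without fatigued control replicate 2, 3, 4, 5 and 6, and 0.0621, 0.0718 and 0.0503 without sedentary control replicate 2, 3 and 6. Without the outlying sedentary control replicate 4 it was 0.0370. It was 0.0980 when no filter on low counts was used. With the replicate number as a block it was also above 0.05. In PBMT mice the call held without each mouse in turn, with log2 fold changes of -0.46 to -0.34.

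Hoxa9 (ENSMUSG00000038227, chr6:52223100-52231089), the neighbour of Hoxa10, is best known from blood stem cells and leukemia and is also used at the base of the limb. It was 8.56 to 9.99 CPM in sedentary PBMT mice, with a median of 9.03, and 5.96 to 8.21 CPM in fatigued PBMT mice, with a median of 7.32. These groups did not overlap. The log2 fold change was -0.34 ± 0.109 (SE) with an adjusted p of 0.0217 in edgeR, and the exact permutation p was 0.00216, the smallest that 6 against 6 mice can give. The adjusted p was 0.0685 without fatigued PBMT replicate 4, 0.0659 without replicate 6 of that group and 0.0642 without sedentary PBMT replicate 1. In control mice Hoxa9 was 5.9 to 10.1 CPM in sedentary and 6.55 to 8.73 CPM in fatigued muscle. In that comparison the log2 fold change was -0.20 with an adjusted p of 0.199, and the lowest sedentary value was that of replicate 4. Without that mouse it was -0.30 with an adjusted p of 0.0170, and limma voom called it with all mice, at 0.0128.

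Hoxa5 (ENSMUSG00000038253, chr6:52201754-52204587) is known for its part in the cervical and thoracic skeleton and in the lung. It was 1.27 to 1.71 CPM in sedentary control mice, with a median of 1.57, and 1.83 to 2.87 CPM in fatigued control mice, with a median of 2.32. All 6 fatigued mice were above all 6 sedentary mice. In PBMT mice it was 0.906 to 2.12 CPM in sedentary muscle, with a median of 1.75, and 1.77 to 3.20 CPM in fatigued muscle, with a median of 2.19, and 3 fatigued mice were above the highest sedentary mouse. The log2 fold change was 0.57 ± 0.187 (SE) in control mice and 0.57 ± 0.186 (SE) in PBMT mice, with adjusted p values of 0.0347 and 0.0243 in edgeR. Exact permutation tests gave p = 0.00216 and p = 0.0303. The call in control mice was lost without fatigued control replicate 1, 2 or 4, with adjusted p values of 0.0581, 0.0832 and 0.0606. It was also lost without sedentary control replicate 1, 2, 5 or 6, with 0.0547, 0.0521, 0.0806 and 0.0511, and with no filter on low counts, with 0.0507. The replicate number as a block also ended the call in control mice. The call in PBMT mice was lost without fatigued PBMT replicate 1 or 3, with 0.0688 and 0.0640, and without sedentary PBMT replicate 3 or 6, with 0.0671 and 0.0620. Without sedentary control replicate 4 the adjusted p in control mice was 0.0398.

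Hoxb3 (ENSMUSG00000048763, chr11:96323326-96347930), a gene of the hindbrain and neck, was 0.0878 to 0.563 CPM in sedentary control mice, with a median of 0.308, and 0.584 to 0.864 CPM in fatigued control mice, with a median of 0.753. The groups did not overlap. The lowest value, from 4 counts, was that of sedentary control replicate 4. The log2 fold change was 1.15 ± 0.271 (SE), with an adjusted p of 0.00404 in edgeR and an exact permutation p of 0.00216. Without that mouse it was 0.96 with an adjusted p of 0.00315. In PBMT mice it was 0.370 to 0.756 CPM in sedentary and 0.644 to 1.03 CPM in fatigued muscle, and 4 fatigued mice were above the highest sedentary mouse. There the log2 fold change of 0.68 had an adjusted p of 0.0549 in edgeR, and of 0.0256 without sedentary PBMT replicate 2. DESeq2 and limma voom called Hoxb3 in PBMT mice, with adjusted p values of 0.0200 and 0.00254. Of the exon bases of Hoxb3, 52.9% lie opposite Hoxb3os, so reads of these genes cannot be told apart where the strand is not known.

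Leaving out sedentary control replicate 4 raised the count of called members in control mice from 3 to 5, while 24.7% of all genes were called. The additional members were Hoxa9 and Hoxb4. Hoxb4, which is used in the hindbrain and in blood stem cells, had a log2 fold change of 0.98 and an adjusted p of 0.0562 with that mouse and of 1.22 and 0.0167 without it. It was also called without fatigued control replicate 3, at 0.0447, by DESeq2, at 0.0362, and by limma voom, at 0.00597. DESeq2 tested 34 members and 29935 genes, and called 4 members and 3202 genes in control mice and 4 members and 4316 genes in PBMT mice. With limma voom 6 and 4 of 27 members were called, and 4945 and 4937 of 15108 genes. Only Hoxb3 remained called in control mice without fatigued control replicate 2 or 4, or without sedentary control replicate 2 or 6. Hoxb4 was 0.0882 to 0.417 CPM in sedentary control mice and 0.305 to 0.691 CPM in fatigued control mice, and 3 fatigued mice were above the highest sedentary mouse. Hoxc8, a thoracic gene, was 0.242 to 1.02 CPM and 0.472 to 1.17 CPM in the same groups, which overlapped, with a log2 fold change of 0.74 and an adjusted p of 0.0964. Its highest sedentary control value was that of replicate 3, and without that mouse the adjusted p was 0.00736, and 0.0186 in limma voom with all mice. In PBMT mice Hoxb9 was 0.158 to 0.278 CPM in sedentary and 0.191 to 0.875 CPM in fatigued muscle, with 4 fatigued mice above the highest sedentary mouse, a log2 fold change of 0.85 and an adjusted p of 0.0597. It was called without fatigued PBMT replicate 4 or 6, at 0.0350 and 0.0261. In both comparisons Hoxc10 was not called, with log2 fold changes of 0.04 (95% interval -0.07 to 0.15) and -0.01 (95% interval -0.13 to 0.10).

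**Figure D3:**
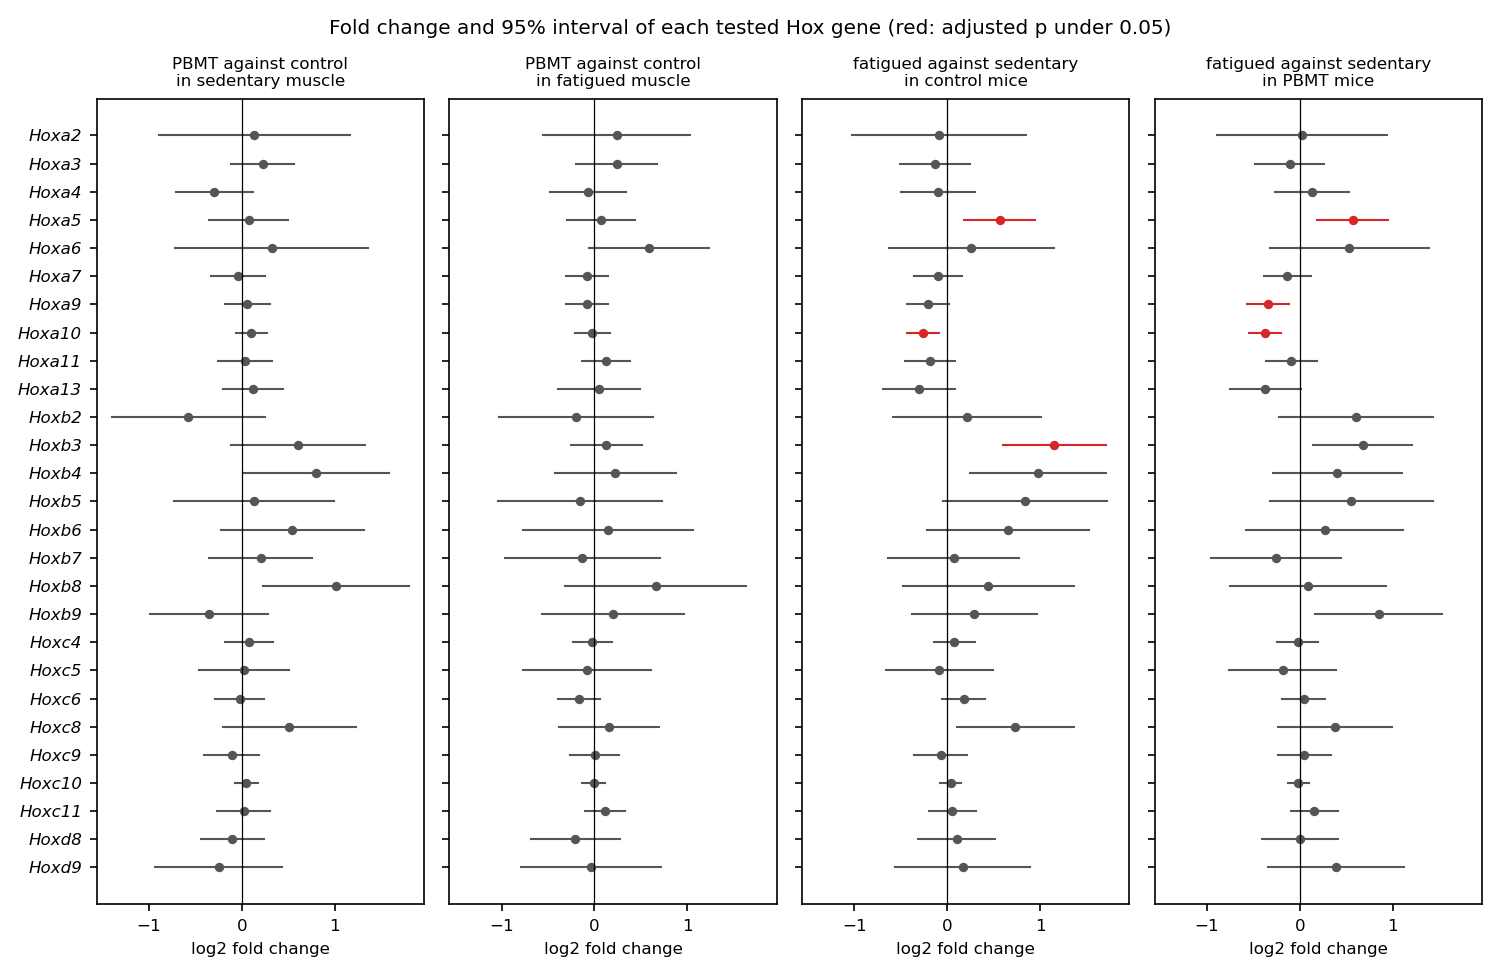
Log2 fold change, as a point, and 95% interval, as a line, of the 27 tested Hox genes in 4 comparisons, in the order of the clusters. Red marks an adjusted p under 0.05 in edgeR. No member is red in the PBMT comparisons, and 3 members are red in each comparison of fatigued with sedentary muscle.

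Some markers of other cells were called in the comparisons of fatigued with sedentary muscle, where 18.6% of all genes were called in control mice and 26.8% in PBMT mice. In a piece of whole muscle, fewer cells of a type and less RNA per cell cannot be told apart. Of 11 interstitial mesenchymal markers, 1 was higher in fatigued control mice and 9 in fatigued PBMT mice, and none was lower. Their summed level was 917 to 1447 CPM in sedentary control, 766 to 1477 in sedentary PBMT, 1288 to 2359 in fatigued control and 1222 to 4822 CPM in fatigued PBMT mice. The highest sum was that of fatigued PBMT replicate 5. Their most abundant gene per length was Dcn, the matrix proteoglycan decorin, and none of the 11 was at 0 counts. Of 7 tendon markers, 2 and 4 were higher, among them Thbs4, with log2 fold changes of 1.13 and 1.34, and the most abundant was Fmod. Their sums were 113 to 227 and 126 to 210 CPM in the sedentary groups and 110 to 472 and 188 to 897 CPM in the fatigued groups, in the order control and PBMT.

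Of 6 myeloid markers, 0 were called in control mice and 4 were higher in PBMT mice. Their sums were 38.9 to 106 and 31.0 to 57.5 CPM in the sedentary groups and 52.8 to 101 and 39.6 to 147 CPM in the fatigued groups, and Lyz2 was the most abundant. Of 10 fiber genes, 4 and 3 were higher, among them Myh4, the fastest myosin heavy chain, with log2 fold changes of 0.86 and 0.65. Of 5 satellite cell markers, Sdc4 was higher in both and Pax7 lower in PBMT mice. The sums of that list were 18.2 to 30.6 CPM in sedentary and 35.4 to 82.5 CPM in fatigued mice. Sdc4 was its most abundant gene, with a median of 28.6 CPM over the 24 mice, against 33.0 CPM for the sum. The sum therefore mostly follows Sdc4. For the 6 endothelial markers 1 and 2 were higher and 0 and 1 were lower, and for the 6 markers of pericytes and smooth muscle 2 and 2 were higher. Schwann cell and erythrocyte markers had 0 calls at an adjusted p under 0.05 in edgeR. At an unadjusted p, 2 erythrocyte markers were lower in control mice and 0 in PBMT mice, and Schwann cell markers had 0 in both. The shares of all genes at that limit were 32.2% and 37.6%. Of the adipocyte markers Cidec was higher in PBMT mice. Skin was close to absent: Krt5, Krt14 and Krt1 had a median of 0 CPM, and the list summed to 1.44 to 29.8 CPM, with the highest value in sedentary PBMT replicate 4. Krt10, the list's most abundant and only tested gene, was lower in fatigued PBMT mice. With sedentary control replicate 4 left out, edgeR called 2 mesenchymal, 5 fiber, and 3 pericyte and smooth muscle genes higher in control mice, and 1 endothelial marker higher and 1 lower. Of all genes, 24.7% were called in that fit. The log2 fold change was then 1.03 for Myh4 and 1.20 for Thbs4, the erythrocyte markers had 0 at an unadjusted p, and the counts of called genes in the other marker lists did not move. The part of these markers, of depth and of the mitochondrial share in the Hox differences was not tested.

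In the PBMT comparisons none of the 11 marker lists had a called gene in edgeR. At an unadjusted p under 0.05 the most were 2 lower mesenchymal, 2 lower myeloid and 2 higher endothelial markers in sedentary muscle, beside 1 higher and 1 lower satellite cell marker. With all mice, 7.63% of all genes had an unadjusted p under 0.05 in sedentary muscle. Without sedentary control replicate 4 there were again 0 called in sedentary muscle. At an unadjusted p there were then 4 lower mesenchymal, 5 lower myeloid, 2 higher endothelial, 2 higher fiber, and 2 higher pericyte and smooth muscle genes, with the satellite cell markers as before. The share of all genes at an unadjusted p in that fit is not given here, so these counts cannot be set against it. In fatigued muscle there were 0 in each list at an unadjusted p, against 1.58% of all genes.

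Hox proteins bind DNA together with TALE homeodomain partners of the Pbx, Meis and Pknox families. Per length the most abundant partner was Pbx2, at a median of 3.94 RPKM. Pknox2 had 3.33 and Pknox1 1.67 RPKM. Pbx3 had 0.527, Meis1 0.213, Meis3 0.199 and Meis2 0.0111 RPKM, and Pbx4 had 17 counts in all. Meis3 was 0.419 to 0.639 CPM in sedentary control and 0.598 to 1.24 CPM in fatigued control mice, and the groups overlapped. Its log2 fold change was 0.86 with an adjusted p of 0.0103 in edgeR, and 0.84 with 0.0131 without sedentary control replicate 4. Of 8 tested partners, 1 was called higher in fatigued control mice and 1 lower in fatigued PBMT mice, beside 18.6% and 26.8% of all genes. Without sedentary control replicate 4, 1 was higher and 1 lower in control mice, beside 24.7% of all genes. The partners called lower are not named here. No partner was called in the PBMT comparisons.

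Genes that set limb identity in the embryo were read as well. Tbx4, the T-box gene of the hindlimb, was read at 1.34 to 2.77 CPM with 2480 counts in all. Tbx5, its forelimb counterpart, had 46 counts in the 24 mice, of which 29 were in fatigued PBMT mice. Per length their medians were 0.549 and 0.00387 RPKM. Pitx1, which acts upstream of Tbx4, varied widely, from 0.0426 to 2.21 CPM. Tbx2, Tbx3 and Shox2 had medians of 0.788, 0.750 and 0.650 RPKM, Lmx1b, the gene of the dorsal limb, had 0.0227 RPKM, and Isl1 had 9 counts in all. Of these 8 genes, 5 were tested for PBMT in sedentary muscle and 6 in each other comparison. Tbx3 alone was called. It was higher in fatigued control and fatigued PBMT mice, where 18.6% and 26.8% of all genes were called. It was 3.31 to 4.63 CPM in sedentary control and 5.95 to 10.0 CPM in fatigued control mice, without overlap, and 2.63 to 4.51 against 5.31 to 9.00 CPM in PBMT mice, also without overlap. The log2 fold changes were 0.89 and 1.09, with adjusted p values of 0.000333 and 1.66e-05 in edgeR. In control mice they were 0.94 and 0.000243 without sedentary control replicate 4.

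Noncoding RNAs inside the clusters were low. Of 19 listed, 16 had a matching identifier and 5 were tested, of which 0 were called in any comparison by edgeR and 0 had an unadjusted p under 0.05. Halr1, at the 3′ end of cluster A, was the most abundant, at a median of 0.883 RPKM. Hoxa11os had 0.413 and Hotair, transcribed from cluster C, 0.179 RPKM, while Hottip had 22 counts in all and Haglr had none. Of 11 matched genes next to the clusters 7 were tested, and 2 were lower in fatigued control and 4 in fatigued PBMT mice. Of all genes, 18.6% and 26.8% were called in these comparisons. Mtx2 and Lnpk lie beside cluster D, whose Hox genes are mostly at or near 0, and were read at medians of 25.1 and 35.3 CPM. Mtx2 had log2 fold changes of -0.52 and -0.43, Hibadh, beside cluster A, of -0.24 and -0.20, and in PBMT mice Lnpk had -0.44 and Smug1 -0.36. Calcoco1, beside cluster C, was the most abundant neighbour at 16.4 RPKM. When sedentary control replicate 4 was left out, edgeR also called Lnpk lower and Calcoco1 higher in control mice, with log2 fold changes of -0.39 and 0.26. The share of all genes called was then 24.7%.

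Polycomb proteins keep Hox genes off and trithorax proteins keep them on. All 24 polycomb genes listed were tested. In control mice 1 was higher and 4 were lower in fatigued muscle, and in PBMT mice 3 were higher and 6 were lower. Over all genes edgeR called 18.6% in control mice and 26.8% in PBMT mice. The difference between these shares and those of the lists was not tested. Bmi1, the most abundant per length at 11.3 RPKM, had log2 fold changes of -0.44 and -0.61, and Ezh2, the histone methyltransferase, of -0.40 and -0.53, while Phc2 had 0.29 and 0.50. Pcgf3 and Mtf2 were also lower in both, Pcgf5 and Suz12 were lower in PBMT mice, and Ring1 was higher in PBMT mice. Of 11 trithorax genes, 2 were higher in each comparison, where 18.6% and 26.8% of all genes were called. They were Dot1l, with log2 fold changes of 0.74 and 0.72, and Men1, with 0.33 and 0.37. The most abundant per length was Dpy30, at 11.9 RPKM. Of 17 genes of retinoic acid signaling, which turns on Hox genes in the embryo, 14 were tested. There were 2 higher and 1 lower in control mice, and 2 higher and 2 lower in PBMT mice, beside 18.6% and 26.8% of all genes. Dhrs3, which lowers retinaldehyde, had log2 fold changes of 1.09 and 1.55, and the receptor gene Rarb of -0.52 and -0.87. Rarg was higher in control mice, with 0.62, and in PBMT mice Aldh1a2, which makes retinoic acid, had 0.99 and Aldh1a1 had -0.53. Rxra was the most abundant per length, at 35.2 RPKM. Cdx1, Cdx2 and Cdx4, which act upstream of Hox genes in the tail bud, had 0 counts in all 24 mice. In a fit without sedentary control replicate 4, edgeR called 3 polycomb genes higher and 6 lower in control mice, and 3 trithorax genes higher, while the retinoic acid counts did not move. The share of all genes called in control mice rose to 24.7% in that fit. The log2 fold changes were then -0.51 for Bmi1, -0.43 for Ezh2, 0.40 for Phc2, 0.81 for Dot1l and 1.16 for Dhrs3. In the PBMT comparisons edgeR called 0 genes of these lists, with or without that mouse.

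The promoters of the called members are shown so that the start of each transcript can be seen beside its values. RefSeq promoter windows, from 250 bases before to 50 bases after a start on GRCm38.p6, were at hand for 22 of the 39 members, with 24 windows in all. Their GC content was 39.7% to 81.0%, with a median of 57.6%, against 52.7% for all 32851 windows. On both strands, 3 motifs were searched: TGATTNAT, a site of Hox proteins with Pbx, TAATTA, a homeodomain core, and TATAAA. They were found in 2, 2 and 4 of the 24 windows, and in 3.22%, 5.29% and 13.6% of all windows. Hoxa10 has a pair of starts, the one nearer to Hoxa9 with 57.3% GC and the other with 54.3%. Hoxa9 has 49.7% GC and 4 CG dinucleotides, and Hoxa5 has 61.7% GC and 29 CG dinucleotides. Capitals mark TATAAA read on the opposite strand, which is in the first of the windows of Hoxa10; none of the 3 motifs is in the other windows shown. Hoxb3 was not in the table. Each window is read 5′ to 3′ on the minus strand.
Hoxa10 (chr6:52234890-52235189): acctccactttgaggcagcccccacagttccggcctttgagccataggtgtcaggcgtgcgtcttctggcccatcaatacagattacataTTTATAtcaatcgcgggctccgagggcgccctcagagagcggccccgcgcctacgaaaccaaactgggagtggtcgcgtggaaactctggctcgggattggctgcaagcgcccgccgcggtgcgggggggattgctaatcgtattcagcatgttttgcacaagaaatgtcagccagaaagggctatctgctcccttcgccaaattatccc
Hoxa10 (chr6:52240805-52241104): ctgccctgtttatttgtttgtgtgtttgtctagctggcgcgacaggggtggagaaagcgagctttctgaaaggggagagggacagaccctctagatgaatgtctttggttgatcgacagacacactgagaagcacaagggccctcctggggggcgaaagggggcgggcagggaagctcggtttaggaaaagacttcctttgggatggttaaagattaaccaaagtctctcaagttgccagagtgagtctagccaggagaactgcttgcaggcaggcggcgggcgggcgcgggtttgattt
Hoxa9 (chr6:52227321-52227620): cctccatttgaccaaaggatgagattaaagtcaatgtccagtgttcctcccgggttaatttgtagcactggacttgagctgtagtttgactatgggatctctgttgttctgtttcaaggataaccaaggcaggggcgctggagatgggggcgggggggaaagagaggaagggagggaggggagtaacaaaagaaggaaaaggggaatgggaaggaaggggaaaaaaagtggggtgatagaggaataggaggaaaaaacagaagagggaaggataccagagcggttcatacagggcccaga
Hoxa5 (chr6:52204538-52204837): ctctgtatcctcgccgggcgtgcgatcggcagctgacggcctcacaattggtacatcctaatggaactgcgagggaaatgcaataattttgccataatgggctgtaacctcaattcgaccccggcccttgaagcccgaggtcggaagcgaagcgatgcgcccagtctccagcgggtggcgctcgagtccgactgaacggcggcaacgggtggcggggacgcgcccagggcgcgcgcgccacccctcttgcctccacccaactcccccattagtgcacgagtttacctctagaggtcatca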

How the data were processed

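The authors deposited raw counts per Ensembl gene for each of 24 mice, with no normalization. The submitters' processing notes name GRCm38, Trimmomatic, STAR 2.7.1a, Picard 2.20.4, StringTie 2.0.4, featureCounts 1.6.0 and HTSeq, without role or order. The annotation, the strand setting and the handling of reads on several genes are not given in the sources used here. Symbols, positions and exon lengths were taken from GENCODE M21. The members and lists were chosen with earlier results of these data known.

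Counts were scaled by TMM, and genes were tested with the quasi-likelihood test of edgeR 4.0.16 in R 4.3.3 (robust, filterByExpr with a minimum count of 10) at 0.05, with p adjusted by Benjamini-Hochberg across every tested gene. PBMT was compared with control within each project (12 libraries), and the 3 other comparisons were fitted over all 24 mice with a mean for each group. Intervals are 95%. Log2 CPM for the spread and the exact permutation tests used a prior count of 2. DESeq2 1.42.0, limma 3.58.1, other filters, scalings, lengths, a replicate block and each mouse left out were alternatives. The fits were checked on simulated data. P-values measure the spread between these mice. No library pair of a group was close to sampling noise (lowest chi-square 13.4 per degree of freedom), so none was counted as a repeat.

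Named genes were members with a median of at least 0.5 CPM, members called in a comparison, the member with the smallest p in each and members at 0; of the other lists, called genes, the most abundant gene and the TALE and limb identity genes. A few genes under this rule are left out of the text. Other members, such as Hoxb4, Hoxb9 and Hoxc8, and marker genes were named after their values were seen. Prac1, Haglros, Hoxa10os and Hoxc13os had no matching identifier.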

Additional observations from a re-analysis of the deposited data

Results flagged for a closer look

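In groups of 6 mice, the CPM of 22 Hox genes was checked for a mouse far from the other 5, by the gap to the nearest mouse over the range of the group. The limit was that of Dixon's test for 6 values, which chance passes in about 1 of 20 groups, or 4.4 of the 88 groups checked. It was passed in 12. Sedentary control replicate 4, the library with 3.24% of mitochondrial counts, had the lowest Hoxa9 of its group at 5.90 CPM (next 8.99), the highest Hoxd9 at 2.26 CPM (next 1.01) and the highest Hoxa6 at 0.702 CPM (next 0.279). Sedentary control replicate 3 had the highest Hoxc4 at 5.81 CPM (next 3.99) and the highest Hoxc8 at 1.02 CPM (next 0.511). Sedentary PBMT replicate 2 had the highest Hoxc5 at 1.06 CPM (next 0.741), the highest Hoxc6 at 4.80 CPM (next 3.92) and the lowest Hoxc9 at 4.66 CPM (next 6.39). Fatigued PBMT replicate 5, which had the highest sum of mesenchymal markers, had the highest Hoxd8 at 5.48 CPM (next 2.85). Fatigued PBMT replicate 3 had the lowest Hoxc6 at 3.43 CPM (next 4.00). Fatigued control replicate 4 had the lowest Hoxa7 at 4.80 CPM (next 5.42), and fatigued control replicate 1 the highest Hoxa10 at 17.8 CPM (next 15.6). The causes were not tested.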

How the results depend on the processing

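The PBMT comparisons and the interaction had 0 called Hox genes under each alternative filter, scaling, tool, replicate block and mouse left out, and in sedentary muscle 2 at an unadjusted p under 0.05. For fatigued against sedentary control mice the count of 3 became 1 with no filter on low counts, 6 with limma voom and 5 at an unadjusted p, and 1 to 5 with a mouse left out. It was 4 with DESeq2, and 2 of 17 tested members with at least 10 counts in every sample. In PBMT mice the count of 3 became 4 with DESeq2 and with limma voom. There it was 5 at an unadjusted p and 2 to 4 with a mouse left out. With the replicate number as a block the count in control mice was 1, Hoxb3, with adjusted p values of 0.0506 for Hoxa10 and 0.0501 for Hoxa5 in edgeR. The block changed no other adjusted Hox count, and in sedentary muscle the count at an unadjusted p went from 2 to 1. In the fatigued groups 4 of 6 same-numbered pairs had correlations of 0.144 to 0.325 and the others -0.0846 and 0.0113, and control replicates 1, 3 and 5 correlated best with their own number. The other comparisons gave -0.272 to 0.0664, with 1 such mouse. Not every pair was over 0.1, so the numbers were not taken as pairs. The study had 1 or 2 control mice in each treadmill session, but the labels do not give which mice shared one. Hoxc10, never called, changed sign in fatigued PBMT against control mice, from -0.03 to 0.03, and in fatigued against sedentary PBMT mice, from -0.03 to 0.02, when mice were left out, and was 0.01 in the former with limma voom. Over all genes, PBMT in sedentary muscle gave 4 calls, and 16 with no filter, 60 with DESeq2, 50 with limma voom, 11 with the block, 1 in a model of all 24 mice and 2 to 20 with a mouse left out. In fatigued muscle it gave 0, and 2 with DESeq2 and 1 with the block. Fatigued against sedentary control mice gave 2809, and 4945 with limma voom. The causes were not tested. The expressed members numbered 14 at a minimum of 1 CPM and 27 at 0.1 CPM. Their median SD was 0.301 to 0.317 with other prior counts, and 0.305 without sedentary control replicate 4, chosen after seeing the data. The share of Hoxc10 was 46.8% by coding length and 58.9% over bases that no other gene shares. Members below 0.5 CPM rest on few counts per mouse, which limits what their tests could detect.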
